A study of Mus musculus with 6 samples.

Results

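The casein kinases are serine/threonine kinases that fall into the unrelated CK1 and CK2 families, and 9 mouse genes that encode them were examined: Csnk1a1, Csnk1d, Csnk1e, Csnk1g1, Csnk1g2 and Csnk1g3 of the CK1 family, and Csnk2a1, Csnk2a2 and Csnk2b of the CK2 family. They are 9 of the 35974 gene names in the deposited table, with 91 of its 114412 transcripts. Csnk1a1 was chosen by measured values: it drew attention to the family through its 4 transcripts that passed the thresholds in the same comparison of exposed with control ovaries, so its values are given as a description with no test. The other 8 genes, taken by symbol, are called the relatives of Csnk1a1 here, those of the CK2 family by shared name only. The question asked was whether the exchange of transcripts in Csnk1a1 is shared by them.

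RNA sequencing was done on polyA RNA from mouse ovaries at stage E15.5, in 3 control pools and 3 pools exposed to panobinostat (PB), an inhibitor of histone deacetylases. All mice were of strain C57Bl6j. The treatment labels separate control from PB pools, but the design text lists the control libraries, like the PB libraries, as coming from exposed mice numbered 2 to 4. By the labels, pregnant females received PB from E6.5 to E15.5 at 5 mg/kg per day. The published methods instead describe oral gavage every other day, with DMSO and water as the control. Each pool joined 4 ovaries according to the extraction protocol, or 6 to 8 according to the design text, while the published methods give a minimum of 8, and the labels do not say which pools came from separate litters. The deposited counts summed to 103627570, 125985399 and 97165644 in control pools 1 to 3, and to 100650825, 104696262 and 120143093 in PB pools 1 to 3. The casein kinases held 0.117%, 0.113% and 0.118% of these counts in controls and 0.123%, 0.118% and 0.120% in exposed pools.

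CK1 kinases are single-chain enzymes that often act on substrates already phosphorylated nearby, and the alpha member primes beta-catenin for its destruction in Wnt signalling, while the delta and epsilon members phosphorylate PER proteins in the circadian clock. CK2 is an assembly of catalytic alpha or alpha prime chains with regulatory beta chains, is active without a second messenger, and phosphorylates many proteins of growth, chromatin and DNA repair. In the fetal ovary, Wnt and beta-catenin signalling maintains the female fate of the supporting cells that surround the germ cells.

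All 9 genes were transcribed in every pool. On the TPM scale, counts divided by transcript length and scaled to the same total in each pool, the level of Csnk2b, the regulatory CK2 subunit, was highest at 148 ± 21.9 (SD over the 6 pools), followed by Csnk1g2 at 110 ± 5.99, Csnk1d at 108 ± 5.66 and Csnk1a1 at 92.8 ± 12.3. Lower per-length levels were measured for Csnk2a1 at 64.2 ± 10.1, Csnk2a2 at 28.5 ± 3.96, Csnk1e at 28.3 ± 3.12, Csnk1g3 at 20.8 ± 2.26 and Csnk1g1 at 11.1 ± 0.966. Neighbours in this order had overlapping ranges over the pools except below Csnk2b, below Csnk2a1 and below Csnk1g3. Csnk1a1 nonetheless stood above Csnk2a1 in every pool, at 99.6 to 106 against 51.6 to 80.0 TPM in controls. In exposed pools the levels were 77.5 to 85.5 against 59.9 to 61.3 TPM. The regulatory CK2 subunit thus stood above both catalytic subunits per length, and the gamma members spanned the range from near the top to the bottom.

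The summed counts of Csnk1a1, the CK1 alpha kinase, were 298, 303 and 290 CPM, the usual unit of counts relative to the normalised library size, in controls and 292, 288 and 293 CPM in exposed pools, so the groups overlapped. Behind this steady sum the transcripts changed places. XM_006526388.2 held 47.0%, 45.2% and 45.2% of the gene's counts in controls and 14.9%, 15.8% and 13.5% in exposed pools. XM_006526384.2 held 44.4%, 44.2% and 43.6% in controls and 18.2%, 16.6% and 15.4% in exposed pools. Both are predicted coding transcripts of RefSeq, and together they made up most of the gene's counts in the controls.

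In the PB pools the leading Csnk1a1 transcript was XR_386023.3, with 36.6%, 37.2% and 38.9% of the gene's counts against 0 counts in every control pool. With 0 set to 3 counts per library, a limit that covers counting error only, this is a 3731-fold rise. How the authors' software divided shared reads is not covered by that limit. XR_386022.3, which has the same 3′ end, had 355, 332 and 469 counts in control pools. XR_386022.3 held 1.21%, 0.941% and 1.72% in controls and 25.1%, 25.7% and 27.9% in exposed pools. Both are predicted non-coding models in RefSeq, and such models together held at most 1.72% of Csnk1a1 counts in any control pool and at least 61.7% in any PB pool. The groups were far apart for each of these 4 transcripts. The passes that drew attention to Csnk1a1 were nonetheless lost for all 4 with the replicate number as a block and with any pool left out, except for XR_386023.3 without control pool 2. Their log2 differences kept their size with a pool left out, at -1.71 to -1.61 for XM_006526388.2, -1.49 to -1.38 for XM_006526384.2 and 4.16 to 4.56 for XR_386022.3. Per length the level of the gene was 105, 99.6 and 106 TPM in controls and 85.5, 77.5 and 83.0 in exposed pools, since the transcripts that gained are the longer ones.

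The exchange lay at the 3′ end of Csnk1a1, which spans 61555183 to 61590315 on the plus strand of chromosome 18 (GRCm38, also called mm10). The transcripts that gained share a 200-base exon at 61584205 to 61584404 and a last exon of 5151 bases that starts at 61585165. Those that lost run instead into a last exon of 2890 bases that starts at 61587426, and both last exons end at the same base. Transcripts with the shorter last exon held 91.4%, 89.5% and 88.7% of the counts in controls and 33.1%, 32.4% and 28.8% in exposed pools. The 200-base exon has no counterpart with the same ends in any GENCODE vM21 transcript of the gene. The same holds for both last exons. A GENCODE transcript has up to 131 coding bases within the 5151-base exon and up to 8 within the 2890-base exon.

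Further upstream the Csnk1a1 pools differed by fewer points. A last exon of 586 bases at 61582036 to 61582621 was carried by 6.87%, 6.86% and 6.81% of the counts in controls and 2.62%, 2.42% and 2.55% in exposed pools. The 84-base alternative exon at 61571874 to 61571957 was carried by 53.0%, 54.8% and 54.8% of the counts in controls and 48.5%, 47.1% and 47.7% in exposed pools. The groups did not overlap for either exon, and the gaps in points are small beside that between the long last exons, although the 586-base exon lost most of its share. The longest last exon has bases that only the transcripts that gained cover. The pair that gained, like the pair that lost, differ from each other by the 84-base exon, which transcripts of both pairs carry. How far the division within a pair rests on the way the authors' software divided shared reads was not tested.

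**Figure D1:**
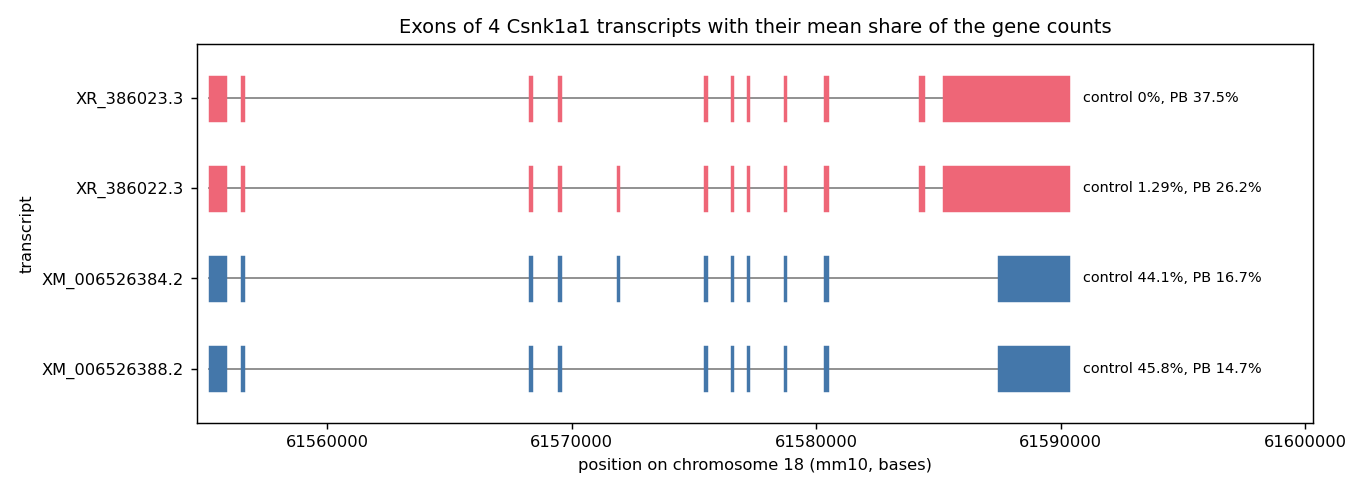
Exon chains of the 4 Csnk1a1 transcripts that exchanged, drawn to scale by position in bases along chromosome 18, with each transcript's mean share of the gene's counts over the 3 control and the 3 PB pools in percent. Boxes are exons and lines introns, red for transcripts that gained and blue for those that lost. The models with the 5151-base last exon go from at most 1.72% together in a control pool to at least 61.7% in a PB pool.

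The distance between the transcript make-up of any 2 pools was measured as the percent of a gene's counts that would have to move from some transcripts to others to make the pools alike, over all 15 pairs of the 6 pools. For Csnk1a1 it was 60.3% to 67.3% over the 9 pairs of a control with a PB pool, and at most 5.17% over the 6 pairs within a group. The groups of a gene were called separated where the smallest distance between groups exceeded the largest within a group. Among the 8576 genes with at least 10 CPM on average and more than 1 transcript, 72, or 0.84%, were separated in this way. None of the 8 relatives was: 0 of 8, in a comparison that carries no test. Csnk1a1 was chosen for its exchange between these groups, so its place among the 72 is a description and no evidence. It was number 4 by the size of the gap, and 14 of the 72, itself included, had a mean distance between groups at least as large.

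The relatives fell into stable and shifting genes. With all transcripts counted, Csnk1d was the most stable, with a mean distance of 2.46% between groups and 3.08% within them. Both were below the typical gene, whose median was 10.7% between groups and 10.6% within. Csnk2b had 8.18% between and 8.25% within, and Csnk1g1 had 8.71% and 10.3%. In the other relatives the make-up moved a great deal, and as much between pools of the same group as between groups. Mean distances were 38.1% between groups and 36.8% within for Csnk1e, 35.4% and 37.4% for Csnk1g2, and 67.4% and 80.5% for Csnk1g3. They were 63.5% between and 68.1% within for Csnk2a1, and 52.6% between and 67.1% within for Csnk2a2. The mean distance between groups was thus about as large in Csnk1g3 and Csnk2a1 as in Csnk1a1, but in those relatives it did not follow the exposure. With known transcripts only, the distances of Csnk2a1 and Csnk2a2 became much smaller, while those of Csnk1g3 and Csnk1e stayed large and Csnk1g2 has no assembled transcript to lose. The mean distances were then 7.62% between and 5.74% within for Csnk2a1, and 19.4% and 22.7% for Csnk2a2. They were 62.0% and 74.1% for Csnk1g3, 33.6% and 33.9% for Csnk1e, 4.32% and 4.72% for Csnk1g1, and 1.15% and 1.20% for Csnk2b. None of these relatives was separated on this measure either, though it could hardly show an exchange in Csnk2a1, which had in effect a single known transcript, XM_006498657.3. In some pools the known transcripts held few counts, since assembled ones held up to 98.8% of Csnk1g3 and 99.7% of Csnk2a1.

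**Figure D2:**
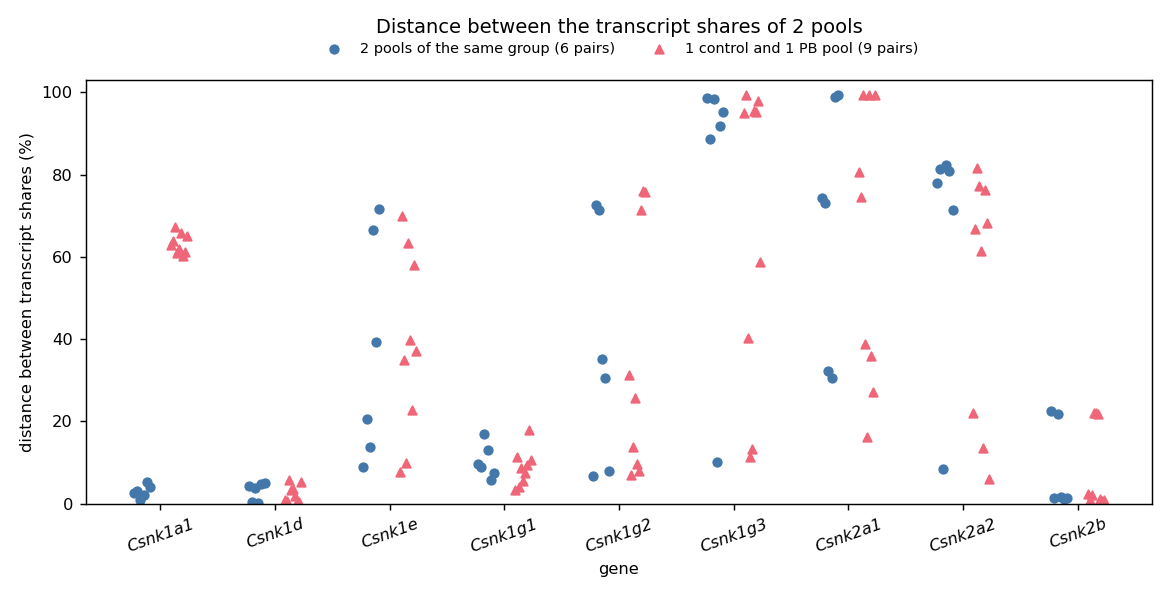
Distance between the transcript make-up of 2 pools, in percent of the gene's counts, for each casein kinase gene. Points are pairs of pools, 6 within a group and 9 between groups. In Csnk1a1 the pairs between groups lie between 60.3% and 67.3%, above its largest distance within a group of 5.17%, while in each of the 8 relatives the clouds overlap.

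Tests were run over the whole table and read out for the relatives. Of their 81 transcripts, 52 passed the filter on low counts, and edgeR called 0 of these 52, where a call needs a 2-fold change or more and a false discovery rate (FDR) no higher than 0.05. Over all transcripts 17 of 51227, or 0.0332%, were called. Among the 52, 3 had an unadjusted p under 0.05 by edgeR, as did 1824 of all 51227, and the smallest FDR was 0.430. DESeq2 called 2 of 57, both of Csnk1e, against 1169 of 72572 in all, or 1.61%. At so low a background rate, 0 of 52 says little about the relatives. Transcript counts spread widely between pools of a group, with a biological coefficient of variation of 98.4% against 20.9% for gene sums.

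The share of counts that each transcript holds was tested gene by gene with edgeR's F-test for transcript usage. It called 0 of the 8 relatives against 164 of all 10360 genes tested, or 1.58%. Among the relatives 1 had an unadjusted p under 0.05, Csnk1e, with an FDR of 0.162. The corresponding test of limma, voom with diffSplice, called 0 of the 8, with 0 at an unadjusted p under 0.05, and 124 of the 10360, or 1.2%. The edgeR count rose to 2 with no filter on low counts (Csnk2a1 and Csnk2b), where 150 of 13979 genes were called, to 1 with a stricter filter (Csnk1e), where 302 of 9217 were, and to 1 without control pool 3 (Csnk2b), where 323 of 11004 were. The FDR values over the alternatives ranged from 0.0475 to 1, 0.00449 to 1 and 0.000156 to 0.871 for Csnk2a1, Csnk2b and Csnk1e. Of the relatives' transcripts, 30 met the rule for naming, 29 of them because they held at least 5% of their gene on average, and 0 of these 29 had shares that did not overlap between groups, where 2050 of all 22229 such transcripts, or 9.22%, did. A p that misses the threshold does not show that the shares were alike. In 5 relatives the largest distance within a group, 71.6% to 99.3%, exceeded every distance between groups in Csnk1a1, so a change of that size could not have separated their groups. With known transcripts only, the largest distance within a group was lower in Csnk2a2, at 41.3%, and in Csnk2a1, at 17.2% with in effect a single known transcript, and in Csnk1e it was 67.3%, level with Csnk1a1.

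Gene sums of the relatives differed little between groups. By edgeR 0 of 8 were called, with 0 at an unadjusted p under 0.05 and a smallest FDR of 0.888, and DESeq2 called 0 against 11 of 26583 in all, or 0.0414%, while 3 of all 19435 gene sums, or 0.0154%, were called. The 95% confidence intervals bound the differences more tightly than the p-values. On the log2 scale, PB minus control, Csnk1d was -0.0033 (interval -0.093 to 0.086), Csnk1g2 was -0.029 (-0.11 to 0.056) and Csnk1e was -0.033 (-0.16 to 0.091). Csnk1g1 was 0.035 (-0.087 to 0.16), Csnk1g3 was 0.099 (-0.033 to 0.23) and Csnk2a1 was 0.096 (-0.016 to 0.21). The widest intervals were those of Csnk2b at 0.11 (-0.079 to 0.31) and Csnk2a2 at 0.011 (-0.38 to 0.40). With known transcripts only, the differences of Csnk1g1, Csnk1g3 and Csnk2a1 turned to -0.043, -1.23 and -0.25, as assembled transcripts then drop out. With all transcripts, each of the 8 intervals lies well inside a doubling or halving of the gene sum. Over all gene sums tested the median was 0.0020, with 5% of them below -0.45 and 5% above 0.53. In whole ovaries, fewer cells of a type and less RNA per cell cannot be told apart.

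Csnk1d, the CK1 delta kinase of the clock, had gene sums of 267, 266 and 258 CPM in controls and 263, 266 and 259 CPM in exposed pools. It lies on the minus strand of chromosome 11, from 120958009 to 120991333, and its transcripts split over a 63-base exon at 120964948 to 120965010 near the 3′ end. NM_139059.2, which skips the exon, held 60.0%, 63.8% and 60.4% of the counts in controls and 60.9%, 60.7% and 65.3% in exposed pools. NM_027874.2, which carries it, held 39.9%, 35.7% and 39.5% in controls and 39.0%, 39.2% and 34.2% in exposed pools. Here too the alternative is at the 3′ end, as in Csnk1a1, but the groups overlapped and no pool left a narrow band. The exon sets where the reading frame ends. Both ends are shown because, with all transcripts counted, this choice was the steadiest in the family. The bases are from GENCODE vM21 on GRCm38, minus strand, read 5′ to 3′, with the stop codon in capitals. The end with the exon is at chr11:120964978-120965010, and the end without it is at chr11:120963856-120963906.
Csnk1d end with the exon: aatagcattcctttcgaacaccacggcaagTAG
Csnk1d end without the exon: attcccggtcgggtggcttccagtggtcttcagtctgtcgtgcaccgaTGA

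Csnk1e, the CK1 epsilon kinase, is the closest relative of Csnk1d and also acts on PER proteins. Its gene sums were 60.1, 57.4 and 63.2 CPM in controls and 58.6, 59.5 and 58.5 CPM in exposed pools, so the groups overlapped. NM_001289898.1 held 67.0%, 63.6% and 51.4% of the counts in controls and 68.2%, 3.96% and 37.7% in exposed pools. XM_006521043.3 held 31.6% in PB pool 2 and at most 1.21% in every other pool. XM_017316657.1 held 19.9%, 26.7% and 36.5% in controls and 18.3%, 28.9% and 15.49% in exposed pools. PB pool 3 had MSTRG.6409.3 at 19.2%, against at most 0.0339% in every other pool, and most of XM_017316658.1, at 13.1%. Both were chosen after their values were seen. So 2 of 3 PB pools stood apart, from the controls and from each other: PB pool 2 lay 57.9% to 69.9% from the controls, PB pool 3 lay 34.8% to 39.7% from them, and the pair lay 71.6% apart. PB pool 1 lay 7.59% to 22.7% from the controls, which differed by 8.83% to 20.6% among themselves. Among the Csnk1e transcripts with at least 5% of the gene on average, XM_017316660.1 varied least, from 6.04% to 9.18%.

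The Csnk1e transcripts differ mainly in their first exons, at the opposite end of the gene from the exchange in Csnk1a1. Transcripts that begin in the 130-base exon at 79441928 to 79442057 of chromosome 15 held 67.0%, 63.6% and 51.4% in controls and 68.2%, 3.96% and 37.7% in exposed pools. These equal the shares of NM_001289898.1. First exons at 79441928 to 79442052 and at 79441928 to 79441970 overlap this exon and were counted apart. A 61-base internal exon at 79421717 to 79421777 was carried by 54.3% of the counts in PB pool 2 and by 0.155% to 7.23% in the other pools. The share of the 130-base first exon was below every control in PB pools 2 and 3 but not in PB pool 1, and the internal exon stood out in PB pool 2. Whether the start site changed was not tested.

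A pair of minor Csnk1e transcripts were the ones that DESeq2 called among the relatives. XM_011245650.2 had 54, 33 and 84 counts in controls and none under PB. With 0 set to 3 counts per library, a limit for counting error only, it was 20.1-fold lower. It held at most 1.41% of the gene's counts in any pool, and its FDR was 0.430 by edgeR and 2.2e-06 by DESeq2, with a range of 2.2e-06 to 1 over the alternatives. NM_001289899.1, chosen after its values were seen because DESeq2 called it, had 2, 1 and 2 counts in controls and 298, 412 and 15 under PB, where it held 5.13%, 6.78% and 0.220% of the gene's counts. Its FDR was 0.650 by edgeR and 5.4e-05 by DESeq2, with a range of 5.4e-05 to 1 over the alternatives. In both, 3 of 3 PB pools lay beyond every control. Of the relatives' 45 transcripts with counts and a mean share under 5%, 6 had shares that did not overlap between groups, where 1900 of all 24625 such transcripts, or 7.72%, did. The 6 were the Csnk1e pair and XM_011242712.1 of Csnk1g1, XM_011239272.2 of Csnk2a1, XM_006530641.3 of Csnk2a2 and MSTRG.7889.1 of Csnk2b, and DESeq2 called only the Csnk1e pair.

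Csnk1g1, a membrane-anchored gamma kinase, had gene sums of 50.6, 50.2 and 51.7 CPM in controls and 52.0, 49.9 and 54.3 CPM in exposed pools. NM_173185.2 led in every pool, with 70.5%, 63.7% and 78.1% of the counts in controls and 70.1%, 64.2% and 69.8% in exposed pools. The assembled transcript MSTRG.18880.13, built by the authors from the reads, held 18.9%, 25.4% and 11.8% in controls and 16.9%, 29.3% and 22.4% in exposed pools. It lacks a 49-base exon at 65950016 to 65950064 of chromosome 9 that holds no coding bases in GENCODE. The groups overlapped for both, and the exchange between them was a matter of single pools.

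Csnk1g2 had gene sums of 180, 178 and 178 CPM in controls and 177, 173 and 176 CPM in exposed pools. These groups did not overlap, and the same held for Csnk2a1, which makes 2 of the 8 relatives where 10.7% of all gene sums tested did not overlap. The difference for Csnk1g2 is a few CPM and was not called. Its transcripts were dominated by a single control pool. XR_001779401.1 held 48.7%, 49.8% and 2.66% of the counts in controls and 24.2%, 51.7% and 54.8% in exposed pools. NM_134002.2, a curated coding transcript, held 15.9%, 17.0% and 88.5% in controls and 17.0%, 12.5% and 12.8% in exposed pools. Control pool 3 was thus the only pool in which the coding transcript led.

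The predicted non-coding models of Csnk1g2, XR_001779401.1 and XR_380333.2, together held 63.3%, 64.3% and 3.23% in controls and 60.4%, 62.9% and 65.6% in exposed pools. In Csnk1g2, as in Csnk1a1, non-coding models could take most of the counts, but here they did so in 5 of the 6 pools whatever the exposure. XR_380333.2 alone held 36.1% in PB pool 1 and 0.572% to 14.6% in the others, and XM_006513011.1 held from 8.30% to 22.7%. The models share an exon that starts 43 bases further upstream than in the coding transcript, on the plus strand of chromosome 10. These bases are shown because they are what sets the models apart, read 5′ to 3′ from GENCODE vM21 on GRCm38 at chr10:80639537-80639579, where GENCODE has them in a transcript annotated for nonsense-mediated decay; no base is in capitals.
Csnk1g2 exon extension: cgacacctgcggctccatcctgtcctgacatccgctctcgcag

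A retained intron set the Csnk1g2 transcripts apart as well. The exon at 80638010 to 80638309, which keeps it, was carried by 33.7%, 31.5% and 89.0% of the counts in controls and by 53.1%, 27.4% and 23.5% in exposed pools. Control pool 3 was highest and PB pool 1 next, so the groups overlapped.

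Csnk1g3, the remaining gamma kinase, had gene sums of 54.9, 55.5 and 57.5 CPM in controls and 62.1, 61.3 and 56.5 CPM in exposed pools. Its transcripts were the most changeable of the CK1 family, with 3 different leaders over the 6 pools. MSTRG.8677.14 led with 37.7%, 43.0% and 39.0% in control pool 2, PB pool 1 and PB pool 2, and held at most 2.15% in the other pools. MSTRG.8677.13 led with 53.8% in control pool 1 and 40.9% in PB pool 3, and XM_006526230.2 led with 68.2% in control pool 3. The pools thus took on their leaders across the groups, and assembled transcripts held from 4.86% to 98.8% of the counts.

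The other named Csnk1g3 transcripts moved with these leaders. MSTRG.8677.15 and MSTRG.8677.16 held 28.2% and 31.7% in control pool 2, 29.6% and 20.6% in PB pool 1, and 38.8% and 19.0% in PB pool 2, and at most 0.838% in the remaining pools. XM_006526237.1 held from 0% to 22.9%. An internal exon of 86 bases at 53930069 to 53930154, as against an 84-base version that starts 2 bases later, was carried by 100%, 1.27% and 95.1% of the counts in controls and by 5.09%, 1.29% and 95.0% in exposed pools. So the counts assigned to this base-level alternative switched nearly completely between pools of 1 group. Among GENCODE vM21 transcripts of the gene, 2 have the 86-base exon and 0 the 84-base version. Whether the splicing itself switched was not tested.

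**Figure D3:**
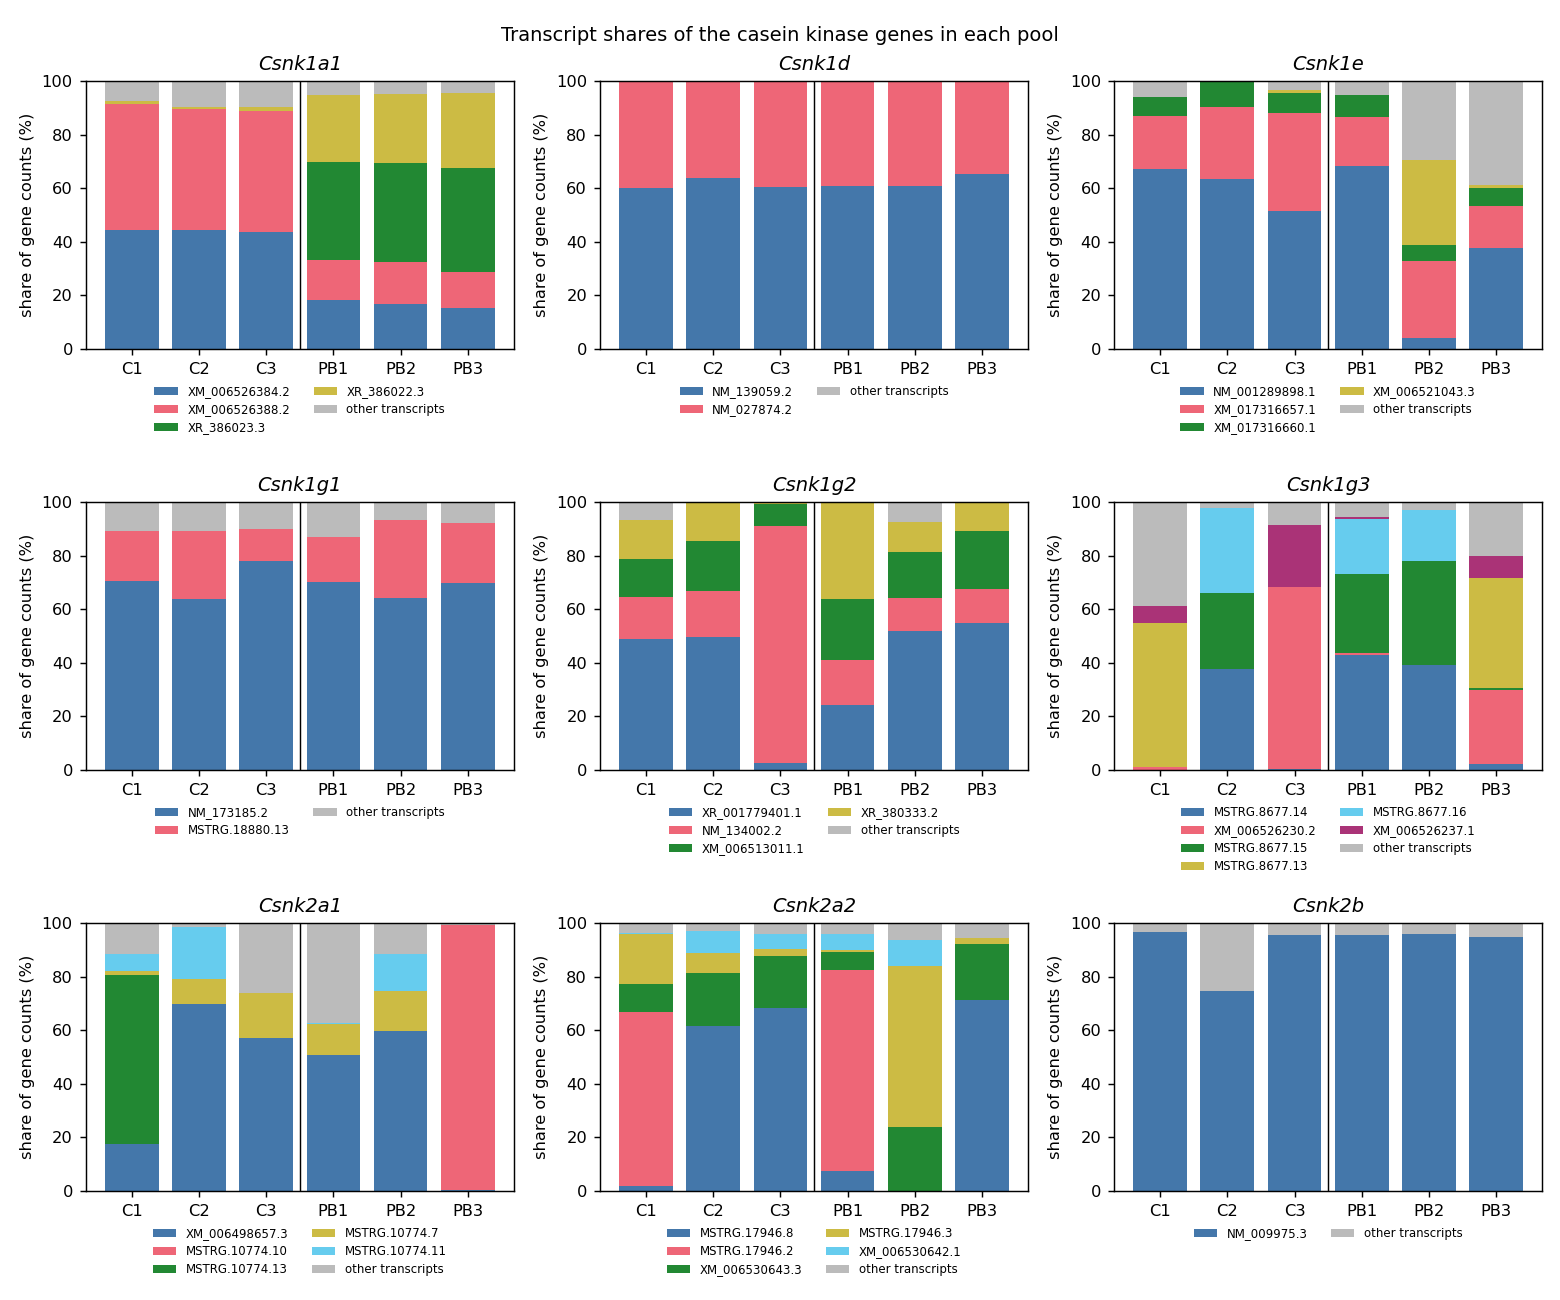
Share of each gene's counts in percent held by the named transcripts of the 9 casein kinase genes, as stacked bars for each of the 3 control and 3 PB pools. Csnk1a1 changes between the groups, Csnk1d keeps its make-up, with NM_139059.2 at 60.0% to 65.3%, and the leaders of Csnk1e, Csnk1g2, Csnk1g3, Csnk2a1 and Csnk2a2 change between pools of a group.

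Csnk2a1, the CK2 alpha catalytic subunit, had gene sums of 149, 158 and 152 CPM in controls and 159, 170 and 161 CPM in exposed pools. XM_006498657.3 held 17.5%, 69.7% and 57.1% of the counts in controls and 50.6%, 59.8% and 0.257% in exposed pools. In its place MSTRG.10774.13, an assembled transcript that lacks the upstream exons, held 63.1% in control pool 1, and MSTRG.10774.10 held 98.9% in PB pool 3. Each of these was at or near 0 in every other pool. MSTRG.10774.7 held from 0.129% to 16.7% and MSTRG.10774.11 from 0% to 19.4%, and assembled transcripts together held from 30.3% to 99.7%.

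Csnk2a2, the alpha prime catalytic subunit, is known for its need in sperm formation. Its gene sums were 79.2, 64.1 and 75.7 CPM in controls and 82.9, 56.0 and 81.8 CPM in exposed pools, the widest spread within groups among the 9 genes. The lowest pools were control pool 2 and PB pool 2. The 7 germ cell markers on a fixed list summed to 794, 585 and 784 CPM in controls and 839, 502 and 895 CPM in exposed pools, with their lowest sums in the same pools. Their most abundant gene was Dazl, at 298, 211 and 292 CPM in controls and 304, 191 and 304 CPM in exposed pools, and none of the 7 was at 0. The markers did not all follow the sum. Pou5f1 was at 30.6, 18.3 and 30.7 CPM in controls and 17.0, 17.6 and 18.6 CPM in exposed pools. Dppa3 was at 20.1, 11.9 and 21.6 CPM in controls and 12.2, 12.5 and 12.8 CPM in exposed pools. Each of the other markers was lowest in PB pool 2. The part of germ cell content in the Csnk2a2 level was not tested.

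The leading Csnk2a2 transcripts differ at the 3′ end and in their first exons, and their shares again changed by pool. MSTRG.17946.2, with an internal exon of 4319 bases on chromosome 8, held 64.8% in control pool 1 and 74.9% in PB pool 1 and 0 counts elsewhere. MSTRG.17946.8 held 61.4%, 68.3% and 71.4% in control pools 2 and 3 and PB pool 3, and at most 7.36% in the others. MSTRG.17946.3 held 60.3% in PB pool 2 and at most 18.8% in the others. XM_006530643.3 ranged from 7.04% to 23.7% and XM_006530642.1 from 0.193% to 9.75%. These wide alternatives at the 3′ end appeared in control and PB pools alike.

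Csnk2b, the regulatory CK2 subunit, had gene sums of 91.5, 93.1 and 90.7 CPM in controls and 106, 87.3 and 104 CPM in exposed pools. NM_009975.3 held 96.7%, 74.8% and 95.5% of the counts in controls and 95.4%, 95.9% and 94.8% in exposed pools. The exception was control pool 2, where the assembled MSTRG.7889.1, which starts in an upstream exon at 35126163 to 35126440 of chromosome 17, held 21.8%. It was chosen after its values were seen. Outside that pool Csnk2b had in effect a single transcript.

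Over the family, 23 of the 91 transcripts were assembled by the authors and 68 were known, 60 passed the filter on low counts, and 9 had 0 counts in every pool. All the assembled transcripts belong to the relatives, and Csnk1a1, Csnk1d and Csnk1g2 had none. Wilson 95% confidence intervals of a share in a single pool reached at most 1.33 points to either side, and a count of 0 allowed a share of at most 0.0617% in any of the genes. These intervals and limits cover counting error only, and in the genes whose leaders change from pool to pool the shifts within a group are many times wider. In Csnk1d distances within a group ran from 0.184% to 4.97%.

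The genes whose 15 pairwise distances were most like those of Csnk1a1 were Paxip1, Psme2 and Tab2, with mean absolute differences of 3.87, 5.50 and 6.47 points. In Paxip1 the assembled MSTRG.13658.3 held 78.1%, 81.9% and 79.1% of the counts in controls and 16.4%, 19.6% and 9.07% in exposed pools. In Psme2 XR_383145.2 held 72.5%, 66.7% and 70.6% in controls and 0 counts in exposed pools. In Tab2 NM_138667.3 held 97.4%, 99.2% and 97.9% in controls and 41.8%, 46.6% and 46.3% in exposed pools. Their mean distances between groups were 66.6%, 70.7% and 53.3%, against 63.2% in Csnk1a1, and Psme2 moved from a non-coding model to the coding NM_011190.3, the opposite direction to Csnk1a1. They were picked for this likeness, so no test is given.

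Genes that work with the casein kinases were read from 7 fixed lists with 63 symbols, of which 62 were in the table, since Bmal1 stands there as Arntl, and 60 passed the filter, and edgeR called 0 of the 60 gene sums in either direction, as DESeq2 did. Only Amer1, a scaffold of the beta-catenin destruction complex, had an unadjusted p under 0.05, with 79.4, 78.0 and 75.0 CPM in controls and 82.9, 87.5 and 83.7 CPM in exposed pools (FDR 0.888). Over all 19435 gene sums, 3 were called and 867 had such a p. The median log2 difference over the 60 was 0.0075, against 0.0020 over all gene sums. Transcript shares were tested in 46 of them and edgeR called 0, with 3 at an unadjusted p under 0.05 and a smallest FDR of 0.0597 for Mdc1, while voom with diffSplice called 0, with 4 at such a p. Over all 10360 genes tested for shares, edgeR called 164 with 846 at such a p, and voom with diffSplice called 124 with 981.

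By list, the 18 genes of the destruction complex and its readout had a median log2 difference of -0.0080. Ctnnb1, which encodes beta-catenin, was at 997 ± 34.3 CPM in controls and 988 ± 5.79 CPM in exposed pools (SD, n = 3 each), and the feedback target Axin2 was at 101 ± 1.85 and 98.5 ± 6.13 CPM. The medians were 0.014 for 12 circadian clock genes, -0.014 for 6 hedgehog transducers, 0.037 for 10 CK2 substrates and partners, 0.0078 for 5 kinases of the CK1 superfamily and 0.11 for 6 tested anchors of the FAM83 family, which bind CK1.

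The list that stood furthest from 0 held the 3 genes of the FAM20 family, with a median of -0.16. Fam20b, a xylose kinase of proteoglycan synthesis, was at 102, 99.1 and 104 CPM in controls and 39.4, 101 and 44.3 CPM in exposed pools, with a log2 difference of -0.73 ± 0.35 (SE) and an FDR of 0.888 by edgeR. PB pool 2 was at control level. Fam20c, the kinase that phosphorylates casein in the secretory pathway, was at 13.2 ± 0.263 and 13.0 ± 1.03 CPM.

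The tissue label was checked against markers. Pregranulosa cell genes summed to 836, 786 and 782 CPM in controls and 825, 803 and 728 CPM in exposed pools, so germ cells and their supporting cells were both present throughout. Adrenal markers were near 0, at 0.619 to 0.988 CPM in sum, and Cyp11b1 was at 0 in 5 of the 6 pools. The mesonephric gene Cdh16 was at 14.8 CPM in control pool 3 and 1.90 to 3.87 CPM in the others, and the steroidogenic Hsd3b1 was at 14.8 CPM in PB pool 1 and 39.0 to 45.6 CPM in the others. Of the 45 marker genes tested on 11 lists, edgeR and DESeq2 called 0, with 4 at an unadjusted p under 0.05 by edgeR: Dppa3, Pou5f1, Dmrt1 and Hba-a2. Their log2 differences, PB minus control, were -0.52, -0.58, -0.52 and -0.77 in that order, each with an FDR of 0.888 by edgeR. Control pool 3, which stood apart in Csnk1g2, had the highest sums of mesonephric genes at 31.3 CPM (13.9 to 20.4 in the others), of Sertoli cell genes at 38.8 CPM (28.0 to 36.8), of interstitial cell genes at 479 CPM (431 to 472) and of endothelial genes at 298 CPM (266 to 279). It had the lowest sums of red blood cell genes at 14959 CPM (18240.5 to 31762) and of surface epithelium genes at 266 CPM (323 to 425). The genes did not all follow these sums. Cdh16, Pax2, Lhx1, Pdgfra, Pecam1 and Cdh5 were themselves highest in control pool 3. Pax8, Nr2f2, Tcf21, Kdr and each of the Sertoli cell genes were higher in another pool. Hba-a2 and Hbb-y were not lowest in control pool 3. A high or low sum there thus does not show more or less of a cell type. The part of other tissue in the Csnk1g2 shares was not tested.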

How the data were processed

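The authors made stranded libraries, aligned reads with HISAT2 2.1.0, assembled and quantified transcripts with StringTie 1.3.5, and deposited raw transcript counts. Their table of comparisons (DESeq2 1.30.0) also holds fold changes, p-values and 6 normalized per-pool columns, none of which were used; it gave the gene names. Counts of transcripts, gene sums and shares were analysed with R 4.3.3, edgeR 4.0.16 (TMM, filterByExpr with minimum count 10 and total 15, quasi-likelihood fit, diffSpliceDGE), limma 3.58.1, DESeq2 1.42.0 and the package data.table, version 1.17.8. Each test ran over all transcripts or genes of the table, 3 control against 3 PB pools, with Benjamini-Hochberg FDR over all tested; 1490 transcripts without a gene name were left out of gene sums, and they held 3.05% to 4.49% of the counts.

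Called means a 2-fold or larger change with FDR no higher than 0.05, or that FDR alone for shares. Named transcripts held at least 5% of their gene on average, were called, or had 0 counts in each pool of a group and at least 10 in each of the other. Likeness took the 3 genes nearest to Csnk1a1 in pairwise distances. The members and lists were chosen with earlier results of these data known. Alternatives were size factors, filters, an FDR of 0.1, a replicate block, leaving out each pool, other tests, known transcripts only and shares per length. The procedure was tested on simulated data, where the edgeR F-test for shares was liberal when nothing changed and voom with diffSplice kept its level. The simulated transcripts varied independently with a single spread, far below the biological coefficient of variation of 98.4% in the data. These error rates therefore need not hold for the measured shares. Whether replicate numbers pair control with PB pools was not established.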

Additional observations from a re-analysis of the deposited data

How the results depend on the processing

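Among the relatives, 0 transcripts were called under every alternative except the DESeq2 Wald test, which called 2, and 0 gene sums under every alternative. Changed shares were called for 2 relatives with no filter (Csnk2a1, FDR 0.0475, range 0.0475 to 1; Csnk2b, FDR 0.0355, range 0.00449 to 1), for 1 with the stricter filter (Csnk1e, FDR 0.000156, range 0.000156 to 0.871), and for 0 to 1 with each pool left out in turn (Csnk2b without control pool 3, FDR 0.00449).

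Over all features, the 17 transcripts called became 51 at an FDR of 0.1, 39 with the stricter filter, 1169 with DESeq2, and 0 to 19 with each pool left out (0 without control pool 1, 1 without control pool 3, 2 without PB pool 1, 9 without PB pool 3). The 3 gene sums became 11 with DESeq2, 8 with known transcripts only, and 3 to 9 with each pool left out (9 without PB pool 2). The 164 genes with changed shares became 302 with the stricter filter, 87 with the Simes test and 266 to 324 with each pool left out. With the replicate number as a block, the counts were 0 transcripts, 0 gene sums and 77 genes with changed shares, but deviations of equally numbered pools correlated at -0.046, 0.127 and 0.078 across 10643 genes, which does not establish a pairing.

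Log2 differences of 5 of the 9 gene sums changed sign. With known transcripts only they were -0.043 for Csnk1g1, -1.23 for Csnk1g3 and -0.25 for Csnk2a1, genes in which assembled transcripts hold counts. With each pool left out they ran from -0.024 to 0.0067 for Csnk1d and from -0.089 to 0.17 for Csnk2a2, which was -0.0057 with the block. Fitted differences of 14 of the 26 named relatives' transcripts tested changed sign under at least 1 alternative. Shares per length left 30 of the 34 named share differences within the spread of the pools. The exceptions are the 4 of Csnk1a1, which became 30.3, -24.5, 20.2 and -20.0 points for XR_386023.3, XM_006526388.2, XR_386022.3 and XM_006526384.2, from 37.5, -31.1, 24.9 and -27.4, and its mean distance between groups became 51.8% and kept the groups separated. With known transcripts only, 72 of 7416 genes were separated, against 72 of 8576. The cause of these shifts was not tested.

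With 3 pools a group, wide spread between pools limits what can be seen in transcript shares. Counts of transcripts with shared exons depend on the assembler, and reads were not analysed here.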
